A study of Mus musculus with 24 samples.

Results

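The question here is whether fear conditioning changed which transcripts sat on the ribosomes of hippocampal excitatory neurons, beyond what it did to the whole tissue. For each control mouse the log2 level of every gene in the ribosome pulldown was set against its log2 level in the Input, the total lysate of the same hippocampi, and the ratios of 3 mice sampled 1 h after training were compared with those of 3 naive mice. These 6 mice gave 12 of the 24 libraries of the series, in which 12 mice were sampled. Of 51733 genes in the table, 14000 had a level of at least 1 CPM (counts scaled to the library total) in at least 6 of the 12 control libraries and were compared.

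All mice were adult males of 2 to 3 months on a C57BL/6 background, and the hippocampi of 1 mouse made 1 sample. The control mice carried the CaMKIIα-Cre transgene without the eIF2α knock-in. Their pulldown was made with an antibody to the HA epitope, which in RiboTag mice is joined to the ribosomal protein Rpl22 in cells that express Cre. The 3 naive mice had no training, and the 3 conditioned mice were taken 1 h after a session in which a tone ended with a foot shock. The labels describe a weak and a strong protocol and do not say which one these mice received. The other 6 mice of the series were conditional knock-in (cKI) animals with the same Cre driver, in which eIF2α cannot be phosphorylated in Cre-positive cells, and they serve here for the test of a difference, for a shared estimate of the spread and to rank genes by enrichment.

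A gene's pulldown-to-Input ratio depends on how many of its transcripts come from Cre-positive neurons and on how many of those are bound to ribosomes. The first divides neuronal from glial and vascular genes in such data. The second is the part that translational control can move within an hour, as it does when stress kinases phosphorylate eIF2α and transcripts with upstream reading frames are read differently. Fear conditioning also starts transcription of immediate-early genes in active neurons, and the shock releases corticosterone, the rodent glucocorticoid, which acts on neurons, glia and vessels alike. Transcripts newly made in Cre-positive neurons raise the Input, and the pulldown once ribosomes bind them. Those made in other cells raise the Input more than the pulldown. A rise in the Input alone thus does not tell which cells it came from.

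The control libraries held 28810676 to 37732528 counts in Inputs and 30587694 to 43530930 in pulldowns. In naive control mice 4994 genes (35.7% of those compared) were higher and 4803 (34.3%) lower in the pulldown than in the Input (edgeR, adjusted p under 0.05). Markers followed the Cre driver. Camk2a, the kinase whose promoter drives the transgene, was 1.01 higher in the pulldown on the log2 scale and Slc17a7, the vesicular glutamate transporter of forebrain excitatory neurons, 0.53 higher. Gad1 of inhibitory neurons was lower by a log2 value of -1.75, Gfap of astrocytes by -3.54, Mbp of myelin by -3.60 and the mitochondrial transcript mt-Cytb by -5.02. Rpl22, the gene that carries the tag, was 1.87 higher. Naive replicate 2 stood apart in ribosomal protein and respiratory chain genes, and the pulldowns of 3 of the 6 mice held few transcripts of dentate granule cells; both are described with their values further on. The labels place the control pulldowns on flow-cell lane 6, the Inputs of naive replicates 1 and 2 on lane 4, and the other 4 control Inputs on lane 5.

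Conditioning left the ratio of most genes within narrow bounds. No gene passed the test in either direction (0% of 14000 higher and 0% lower, edgeR, adjusted p under 0.05). The smallest adjusted p was 0.231, for Tsc22d3. At an unadjusted p under 0.05, 310 genes were higher (2.21%) and 340 lower (2.43%), which is 650 genes or 4.64% in all. The DESeq2 Wald test with the same design called 8 genes lower (0.0571%) and 0 higher. Those 8 were Tsc22d3, Sgk1, Zdhhc22, Syt2, Rims3, Cobl, Olfm2 and Rxfp1. Between mice, the 3 conditioned ratios lay wholly above the 3 naive ratios for 853 genes (6.09%) and wholly below them for 638 (4.56%), which is 10.6% of genes in all. The change was above 0 for 57.3% of genes, with a median of 0.02.

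The absence of calls had a measurable precision. The median absolute change was 0.095 on the log2 scale and 95.1% of genes moved by less than 0.5. The standard error of the change had a median of 0.139, with a 10th to 90th percentile range of 0.0801 to 0.342, and the 95% interval had a median half-width of 0.3. For 12411 genes (88.6%) that interval lay within 1 log2 unit of 0, so a 2-fold change of the ratio was outside the interval for most genes. Changes over 1 in size were estimated for 84 genes. The p-values measure the change against a spread between mice that was estimated over all 12 mice of the series, with the 6 cKI mice included.

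Few eIF2α-related transcripts stood out. Eif2s1, which encodes eIF2α itself, had ratios of 0.47, 0.33 and 0.32 in the naive mice and 0.33, 0.52 and 0.39 in the conditioned mice, and the groups overlapped. Its change was 0.04 (SE 0.10, 95% interval -0.17 to 0.25). All 12 transcripts of the list with upstream reading frames that respond to eIF2α phosphorylation passed the level filter, and none had an unadjusted p under 0.05. Their median change was 0.02 and their range -0.18 to 0.15, beside a median of 0.02 over all genes. Of 41 targets of ATF4, the transcription factor made when eIF2α is phosphorylated, 1 was higher and 1 lower at an unadjusted p under 0.05, where 2.21% and 2.43% of all genes were. Their median was 0.04 and their range -0.54 to 0.45. Of 22 endoplasmic reticulum chaperones and unfolded-protein genes, 7 rose in the Input 1 h after conditioning, by 0.35 to 0.56 (edgeR), against 0.586% of all genes. They include Hspa5, which encodes the chaperone BiP, and the stress factor Xbp1. Their pulldown changes were 0.37 to 0.62, with none called, and their ratio changes were 0.03 to 0.08. These 7 Input calls were not checked with the Inputs of a single lane or with 1 mouse left out.

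Genes whose ratio moved most can be divided by the side on which their level changed. In the Inputs 82 genes were higher (0.586%) and 69 lower (0.493%) 1 h after conditioning, and in the pulldowns 19 were higher (0.136%) and 23 lower (0.164%). On both sides 9 genes were called higher and 4 lower. A further 73 were called higher and 65 lower in the Input alone, and 10 higher and 19 lower in the pulldown alone. The median ratio change was -0.61 for the 19 genes called lower in the pulldown alone, 0.31 for the 10 called higher there alone, 0.20 for the 9 called higher on both sides and -0.04 for the 73 called higher in the Input alone. These classes were made from the same libraries as the ratio, so the medians describe them and are no test.

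**Figure D1:**
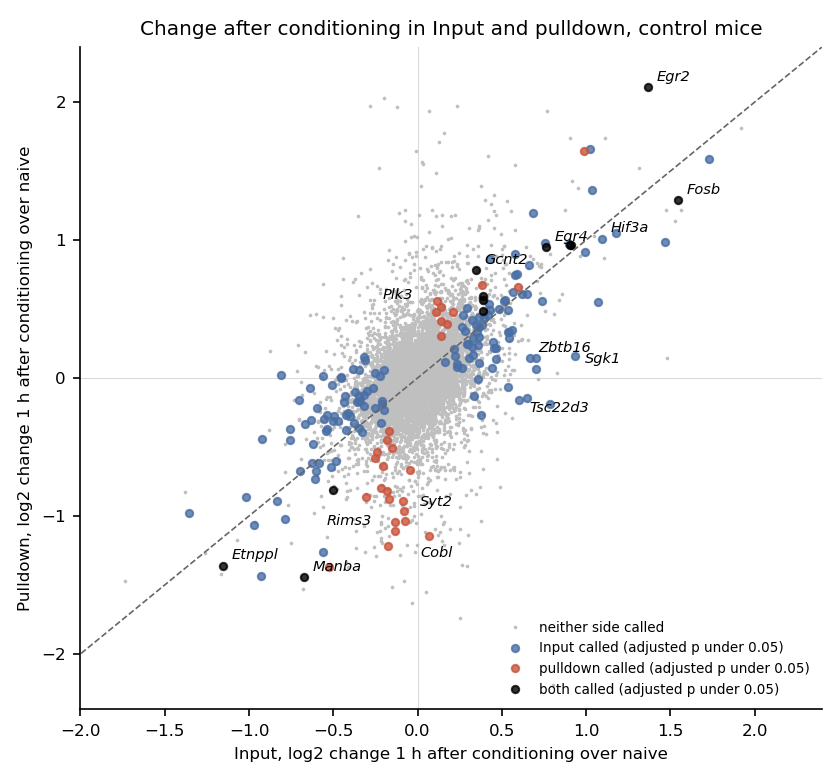
Change 1 h after conditioning over naive in control mice, with the Input on the horizontal axis and the pulldown on the vertical axis, both on a log2 scale. Each point is 1 gene, coloured by the side on which it passed the edgeR test, the dashed line marks equal change on both sides, and 3 genes lie outside the axes. Egr2 and Fosb changed on both sides, Tsc22d3 and Sgk1 lie to the right of the line, and Syt2, Rims3 and Cobl lie below it.

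Tsc22d3 and Sgk1 moved through the Input. Tsc22d3 encodes GILZ, a leucine-zipper protein induced by glucocorticoids. Its Input level was 29.3, 35.0 and 26.7 CPM in naive mice and 44.8, 46.1 and 45.3 CPM in conditioned mice. Its pulldown level was 14.3, 15.1 and 15.7 CPM in naive and 13.5, 13.2 and 13.8 CPM in conditioned mice. Every conditioned Input was above every naive Input, while the pulldowns differed by little more than 2 CPM. The ratio was -1.03, -1.21 and -0.77 in naive mice and -1.73, -1.80 and -1.71 in conditioned mice. That is a change of -0.74 (SE 0.11, 95% interval -0.98 to -0.50), with an adjusted p of 0.231 in edgeR. In the Input Tsc22d3 rose by 0.60 (adjusted p = 0.00221), and in the pulldown its change was -0.16 (adjusted p = 0.588).

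Sgk1 encodes a serum- and glucocorticoid-regulated kinase that acts on ion channels and transporters. Its Input level was 47.3, 72.8 and 46.2 CPM in naive mice and 102, 95.3 and 116 CPM in conditioned mice. In the pulldown it was 54.0, 56.4 and 57.5 CPM against 59.0, 63.8 and 64.8 CPM. The Inputs differed by far more than the pulldowns, and neither side overlapped. The naive ratios of 0.19, -0.37 and 0.32 became -0.79, -0.58 and -0.84, a change of -0.78 (SE 0.15, adjusted p = 0.453 in edgeR). Sgk1 rose by 0.93 in the Input (adjusted p = 0.0102) and its change in the pulldown was 0.16 (adjusted p = 0.405). In naive mice the pulldown exceeded the Input by a log2 value of 0.04, and after conditioning Sgk1 was lower in the pulldown than in the Input in every mouse.

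Sgk1 is shown with 250 bases before 1 of its RefSeq starts because this window holds the palindromic glucocorticoid element. The window is chr10:21993640-21993889 on the plus strand of GRCm38.p6, 5′ to 3′, and capitals mark the element, the half-sites AGAACA and TGTTCT with 3 bases between them, which begins 189 bases before the start. Both strands were searched.
Sgk1: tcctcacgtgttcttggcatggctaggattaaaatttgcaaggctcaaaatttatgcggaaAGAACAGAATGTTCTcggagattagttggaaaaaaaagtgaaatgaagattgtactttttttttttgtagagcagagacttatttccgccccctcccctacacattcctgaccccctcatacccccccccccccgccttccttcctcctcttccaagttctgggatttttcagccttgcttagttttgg
RefSeq gives 6 such windows for Sgk1, of which 1 held the element. Among 32851 windows of that length 3 held it (0.00913%), and Sgk1 was the only gene with it among the 28 of the 31 glucocorticoid-induced genes that had a window. The 3 windows of Tsc22d3 and the single windows of Arrdc2 and Klf15 held no exact match. A match describes letters in a window and no match says only that these letters are not there.

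The remaining glucocorticoid-induced genes did not share one pattern. Of the 31 measured, 12 rose in the Input, against 0.586% of all genes, and 1 rose in the pulldown, against 0.136%. For the ratio 5 were higher and 7 lower at an unadjusted p under 0.05, where 2.21% and 2.43% of all genes were, and none passed the adjusted test. Without overlap 6 were higher and 8 lower, beside 6.09% and 4.56% of all genes. The median of the 31 changes was 0.02. The median ratio of the list by mouse was -0.70, -0.91 and -0.67 in naive mice. In conditioned mice it was -1.20, -1.20 and -1.11, without overlap. Among the 12 that rose in the Input, 8 had a ratio change below 0 and 4 above. Arrdc2, an arrestin-domain gene, rose from 9.85, 13.7 and 9.06 CPM to 19.2, 15.7 and 17.6 CPM in the Input (log2 change 0.70, adjusted p = 0.0172, edgeR), and its ratio change was -0.55 (SE 0.17). Klf15, a Krüppel-like transcription factor, rose by 0.44 in the Input (adjusted p = 0.0102), with a ratio change of -0.35 (SE 0.12). Zbtb16, a zinc-finger regulator, rose by 0.67 in the Input (adjusted p = 0.0486), with a ratio change of -0.53 (SE 0.23). Arrdc2, Klf15 and Zbtb16 were not called in the pulldown.

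Some glucocorticoid-induced genes called in the Input had ratio changes near 0. Hif3a, a hypoxia-inducible factor subunit, had Input levels of 7.46, 6.81 and 7.07 CPM in naive mice and 15.3, 13.9 and 15.96 CPM in conditioned mice. Its pulldown levels were 1.01, 1.60 and 1.18 CPM against 2.96, 2.34 and 2.41 CPM. The conditioned libraries were above the naive ones on both sides, and the ratio change was -0.06 (SE 0.25). Hif3a rose by 1.10 in the Input (adjusted p = 6.99e-05, edgeR), and its pulldown change of 1.01 had an adjusted p of 0.1. The clock gene Per1 rose by 0.49 in the Input and Errfi1, an inhibitor of the EGF receptor, by 0.39, and their ratio changes were 0.04 (SE 0.09) and 0.11 (SE 0.09). Errfi1 was the 1 member of the list that also rose in the pulldown, by 0.48 (adjusted p = 0.0368). Fkbp5, a receptor co-chaperone, gave 0.13 in the Input (adjusted p = 0.542) and a ratio change of -0.07.

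The Input changes were also estimated with the Inputs of lane 5 alone, those of 3 conditioned mice and of naive replicate 3. With 1 naive mouse only the sizes are given. Tsc22d3 was 0.77 higher, Sgk1 1.18 and Arrdc2 0.95. Klf15 was 0.48 higher, Zbtb16 0.57, Hif3a 1.09, Fosb 1.58, Adipor2 0.48 and Mat2a 0.44. Etnppl and Manba changed by -1.13 and -0.73. Per1 was 0.49 higher, Errfi1 0.36, Fzd4 0.29, Egr2 1.135, Egr4 0.78 and Gcnt2 0.38. With all Inputs the values of Per1 to Gcnt2 were, in the same order, 0.49, 0.39, 0.38, 1.37, 0.76 and 0.35. For the ratio this setting leaves out naive replicates 1 and 2 in both fractions, so naive replicate 3 is the only naive control mouse. The ratio changes were -0.98 for Tsc22d3, -1.05 for Sgk1, -0.71 for Arrdc2 and -0.48 for Klf15, each farther from 0 than with all mice. Zbtb16 gave -0.37, nearer to 0. Replicate 3 had the highest naive ratio of Tsc22d3 and Sgk1, at -0.77 and 0.32. The setting changes the naive mice along with the lane and cannot separate them. Tsc22d3 stayed called in the Input whichever of the 6 mice was left out. Sgk1 lost its call without conditioned replicate 3 (adjusted p = 0.0556), and so did Arrdc2, Klf15 and Zbtb16, whose calls held in 2, 4 and 2 of 6 omissions.

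**Figure D2:**
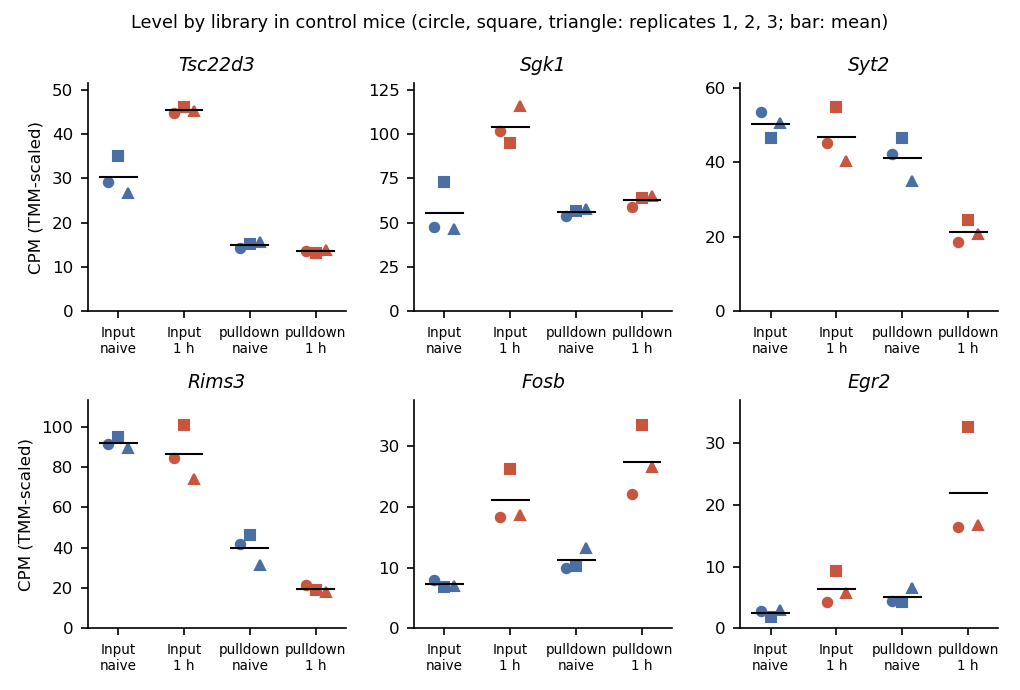
Level in CPM of 6 genes in each of the 12 control libraries, grouped by fraction and training state, with symbols for replicates 1 to 3 and a bar for the mean. Tsc22d3 and Sgk1 rose in the Input while their pulldown levels hardly moved, Syt2 and Rims3 are lower in the pulldown alone, and Fosb and Egr2 rose on both sides.

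A second set moved through the pulldown. The 19 genes called lower in the pulldown and not in the Input had pulldown changes of -1.37 to -0.39 and Input changes of -0.52 to 0.07. Of these 19, which were picked by their pulldown change, 16 had lower ratios without overlap between the training states, beside 4.56% of all genes. Syt2, a synaptotagmin that senses calcium at fast synapses, had pulldown levels of 42.2, 46.7 and 35.0 CPM in naive mice and 18.5, 24.6 and 20.8 CPM in conditioned mice. Its Input levels were 53.5, 46.5 and 50.7 CPM against 45.3, 55.0 and 40.3 CPM. The pulldowns were separated and the Inputs overlapped. Ratios of -0.34, 0.01 and -0.53 became -1.29, -1.16 and -0.95, a change of -0.85 (SE 0.16, adjusted p = 0.453 in edgeR).

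Rims3, a protein of the presynaptic active zone, showed the same layout. Its pulldown levels were 41.6, 46.1 and 31.3 CPM against 21.4, 18.9 and 17.8 CPM, with Inputs of 91.5, 94.9 and 89.1 CPM against 84.5, 101 and 73.8 CPM. The ratio change was -0.92 (SE 0.19). Bmper, a secreted regulator of BMP signalling, fell in the pulldown from 6.47, 6.00 and 4.76 CPM to 2.45, 3.00 and 2.95 CPM and had a ratio change of -0.88 (SE 0.17). Rasgef1b, an exchange factor for small GTPases, fell from 5.59, 7.97 and 6.19 CPM to 3.62, 3.76 and 3.27 CPM and had a ratio change of -0.78 (SE 0.15). Cobl, an actin nucleator, had a ratio change of -1.14 (SE 0.24). Cobl and a pair of further members were chosen after their values were seen. Slc17a6, the glutamate transporter VGLUT2, fell by 0.86 in the pulldown (adjusted p = 0.0399, edgeR) with a ratio change of -0.53 (SE 0.17), and its ratios overlapped. Adcyap1, which encodes the neuropeptide PACAP, fell by 1.11 there (adjusted p = 0.0399) with a ratio change of -0.96 (SE 0.29).

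These pulldown calls were fragile. The calls of Bmper, Rasgef1b, Cobl, Slc17a6 and Adcyap1 were lost whichever of the 6 mice was left out, with adjusted p up to 0.244, and those of Syt2 and Rims3 held in 1 of 6 omissions, without naive replicate 3. Their ratio changes kept their sign in every setting tried, with ranges of -0.97 to -0.60 for Syt2 and -1.06 to -0.64 for Rims3. As these genes were picked from the same libraries, the kept sign is no test.

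Zdhhc22, a palmitoyltransferase, had the lowest ratio change among the 8 genes with the smallest p in that direction. Its pulldown levels were 10.2, 14.2 and 7.81 CPM in naive and 6.19, 5.40 and 3.92 CPM in conditioned mice, and its Input levels of 18.6, 22.3 and 17.6 CPM and 22.2, 26.4 and 15.3 CPM overlapped. The ratio went from -0.86, -0.64 and -1.17 to -1.83, -2.28 and -1.95, a change of -1.15 (SE 0.20, adjusted p = 0.417 in edgeR). Olfm2, a secreted olfactomedin protein, and Rxfp1, the relaxin receptor, were among the 8 genes called by DESeq2, and in edgeR their changes were -0.87 (SE 0.18) and -1.09 (SE 0.24). Fzd4, a receptor for Wnt ligands and norrin, rose by 0.38 in the Input (adjusted p = 0.0221) and had a ratio change of -0.62 (SE 0.13). Its Input call held in 3 of 6 omissions, and its Input change was 0.29 with the Inputs of lane 5, which hold 1 naive mouse. CTGF, a matrix-associated growth factor singled out after its values were seen, had the lowest value named here. Its pulldown levels were 11.5, 16.4 and 9.95 CPM against 4.29, 3.89 and 3.20 CPM, with Inputs of 12.3 to 20.0 and 15.7 to 19.9 CPM. The change was -1.97 (SE 0.51, adjusted p = 0.584 in edgeR), and CTGF was the single gene called in the fit of the 12 control libraries alone (adjusted p = 0.00205).

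**Figure D3:**
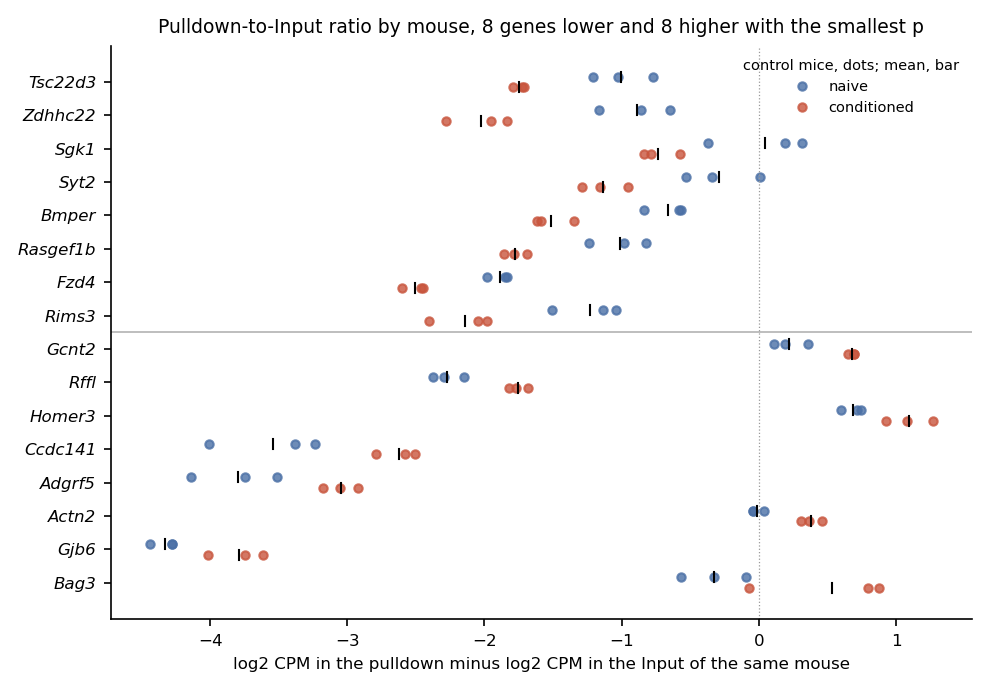
Pulldown-to-Input ratio on a log2 scale in each control mouse, for the 8 genes lower and the 8 genes higher after conditioning with the smallest p, with naive mice in blue, conditioned mice in red and the mean as a bar. The 3 conditioned ratios lie apart from the 3 naive ratios in all 16 genes, which were ranked on that contrast.

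On the higher side the 8 genes with the smallest p had ratio changes of 0.39 to 0.93 and adjusted p of 0.453 to 0.584 in edgeR. Gcnt2, a glycosyltransferase that branches poly-N-acetyllactosamine chains, rose on both sides and more in the pulldown. Its pulldown levels were 18.99, 19.5 and 21.1 CPM against 33.1, 34.2 and 35.7 CPM, and its Inputs 17.6, 17.1 and 16.5 CPM against 20.4, 21.8 and 22.1 CPM. Neither side overlapped, and the ratio change was 0.46 (SE 0.10). The Input call of Gcnt2 was lost in each of 6 omissions, and its pulldown call without naive replicate 1. Homer3, a postsynaptic scaffold protein, had pulldown levels of 97.5, 92.3 and 104 CPM against 114, 130 and 135 CPM and Inputs of 53.9 to 63.8 CPM in all 6 mice, with a ratio change of 0.41 (SE 0.10). Actn2, an actin cross-linker of dendritic spines, rose by 0.48 in the pulldown (adjusted p = 0.0488), a call lost in each of 6 omissions, and had a ratio change of 0.39 (SE 0.10).

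Bag3, a co-chaperone of Hsp70, was uneven among the conditioned mice. Its pulldown level was 6.93, 7.82 and 9.70 CPM in naive mice and 10.03, 28.2 and 33.4 CPM in conditioned mice. Conditioned replicate 1 was thus next to the naive mice, with a ratio of -0.07 beside 0.79 and 0.88. The change of 0.89 (SE 0.23) ran from 0.66 to 1.17 over the settings. The other 4 genes were depleted from the pulldown in naive mice. Gjb6, the astrocyte connexin 30, had pulldown levels of 2.54, 3.504 and 2.83 CPM against 6.16, 5.12 and 4.56 CPM and a ratio change of 0.56 (SE 0.14). It was the highest of 24 astrocyte markers, whose median was -0.02, with 10 above 0, 1 higher and 1 lower at an unadjusted p under 0.05. Adgrf5, an adhesion receptor of vessels, gave 0.75 (SE 0.18), Ccdc141 0.93 (SE 0.22) and Rffl, a ubiquitin ligase, 0.52 (SE 0.12). The first 2 rest on low pulldown levels, of 1.53 to 2.34 against 3.19 to 3.81 CPM for Adgrf5 and 0.90 to 1.38 against 2.02 to 2.62 CPM for Ccdc141. Rffl changed by -0.32 in the Input and 0.18 in the pulldown, with neither called.

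Of 29 immediate-early transcription regulators, 5 rose in the Input and 3 in the pulldown, and of 25 effectors and feedback inhibitors 4 and 2, where 0.586% and 0.136% of all genes did. The 3 called in the pulldown, Fosb, Egr2 and Egr4, were also called in the Input. Fosb, a subunit of the AP-1 factor, had Input levels of 8.03, 6.78 and 7.04 CPM in naive mice and 18.3, 26.2 and 18.6 CPM in conditioned mice. In the pulldown it had 9.96, 10.3 and 13.3 CPM against 22.1, 33.4 and 26.5 CPM. All conditioned libraries were above all naive ones on both sides, with conditioned replicate 2 the highest on each. Fosb rose by 1.55 in the Input (adjusted p = 0.000106, edgeR) and by 1.29 in the pulldown (adjusted p = 0.00273), and its ratio change was -0.23 (SE 0.15). Egr4, an early growth response factor, rose by 0.76 and 0.95, with a ratio change of 0.21 (SE 0.16).

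Egr2, a factor of the same family, had the highest ratio change among the 29 regulators. Its Input levels were 2.82, 1.77 and 2.93 CPM against 4.20, 9.31 and 5.68 CPM, and its pulldown levels 4.45, 4.29 and 6.56 CPM against 16.4, 32.7 and 16.8 CPM. The ratio went from 0.65, 1.25 and 1.15 to 1.95, 1.81 and 1.56, without overlap. Egr2 rose by 1.37 in the Input (adjusted p = 0.0289, edgeR) and by 2.11 in the pulldown (adjusted p = 0.0488), and the ratio change was 0.75 (SE 0.26, adjusted p = 0.802). In the cKI mice it was 0.78. Both side calls of Egr2 were lost in 5 of 6 omissions. The pulldown calls of Egr4 and Errfi1 held in 1 of 6 omissions, and those of Fosb in 6 of 6.

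The 250 bases before an Egr2 start are shown because they hold a CArG box, the site bound by serum response factor, which drives many immediate-early genes. The window is chr10:67537619-67537868 on the plus strand of GRCm38.p6, from RefSeq, 5′ to 3′, with the CArG box in capitals, 72 bases before the start.
Egr2: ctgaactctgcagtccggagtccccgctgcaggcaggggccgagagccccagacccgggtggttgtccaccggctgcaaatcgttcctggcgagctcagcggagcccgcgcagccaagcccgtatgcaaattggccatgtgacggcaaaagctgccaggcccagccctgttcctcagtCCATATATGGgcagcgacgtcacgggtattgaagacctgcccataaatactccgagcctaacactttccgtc
Of 5 RefSeq windows of Egr2, 4 held a CArG box on either strand, as did 482 of all 32851 windows (1.47%). By gene, 142 of the 10424 compared genes with a window had one (1.36%). Among 23 immediate-early transcription regulators with a window 2 had one, Egr2 and Srf, and the 1 window each of Fosb and Npas4 had none. The cyclic AMP element TGACGTCA, searched in the same way, was in 5 of 20 immediate-early effectors and 1 of 23 transcription regulators with a window, and in 323 of all 10424 compared genes with one (3.1%).

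Over the 29 transcription regulators the ratio was higher in 4 and lower in 0 at an unadjusted p under 0.05, with a median of 0.13, and over the 25 effectors and feedback inhibitors in 4 and 0, with a median of 0.06. Of all genes 2.21% were higher and 2.43% lower. Npas4, a neuron-specific factor, had ratios of -0.58, -0.19 and 0.07 in naive mice and 0.29, 0.62 and 0.39 in conditioned mice, with no overlap and a change of 0.68 (SE 0.22). Its levels on each side overlapped between the groups, at 6.81 to 14.1 and 7.98 to 14.5 CPM in the Input and 5.95 to 12.7 and 9.75 to 22.2 CPM in the pulldown. Plk3, a polo-like kinase, rose by 0.56 in the pulldown (adjusted p = 0.0399, edgeR), with a ratio change of 0.47 (SE 0.14), and lost the pulldown call whichever mouse was left out. Btg2, an antiproliferative factor, gave 0.56 (SE 0.20), but its ratios overlapped and its change in cKI mice was -0.18. Its pulldown levels were 24.7, 12.5 and 15.3 CPM against 26.5, 26.2 and 15.7 CPM. They were highest in naive replicate 1 and conditioned replicates 1 and 2, the mice whose pulldowns held granule cell transcripts, as described below. The common markers of activity sat near 0, with ratio changes of 0.17 (SE 0.17) for Arc, -0.07 (SE 0.23) for Fos and 0.12 (SE 0.18) for Egr1. None of these 3 was called on either side. Egr1 rose by 0.73 in the Input and by 0.83 in the pulldown (adjusted p = 0.0716 and 0.0798, edgeR). Levels of Egr1 and of Fos did not overlap between the groups on either side, while those of Arc overlapped on both. Conditioned replicate 2 had the highest Fos level in both fractions, at 28.05 CPM in the Input and 40.6 CPM in the pulldown. With the Inputs of lane 5 alone the ratio changes of the activity genes were lower, at 0.61 for Egr2, 0.37 for Npas4, 0.21 for Plk3, 0.03 for Egr4, 0.04 for Arc, -0.04 for Egr1, -0.29 for Fos and -0.54 for Fosb. Btg2 was the exception at 0.61, in a setting where naive replicate 3 is the only naive control mouse.

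Some genes fell on both sides. Etnppl, an enzyme of phosphoethanolamine breakdown in astrocytes, fell by 1.15 in the Input (adjusted p = 0.000226, edgeR). It fell by 1.36 in the pulldown (adjusted p = 0.0399, lost in each of 6 omissions). Its ratio change was -0.18 (SE 0.20), or -0.56 with the Inputs of lane 5, where naive replicate 3 is the only naive mouse. Manba, the lysosomal beta-mannosidase, fell by 0.67 in the Input and 1.44 in the pulldown (adjusted p = 0.00439 and 0.00273), and its ratio change was -0.74 (SE 0.18). A pair of genes called in the Input alone, Adipor2 (an adiponectin receptor) and Mat2a (S-adenosylmethionine synthesis), rose there by 0.46 and 0.36 and had ratio changes of -0.31 (SE 0.08) and -0.24 (SE 0.08). Besides Etnppl and Manba, the genes called lower on both sides were A730081D07Rik and Zc2hc1a. Over these 4 the lowest Input change was -3.41 and the lowest pulldown change -3.46. Nnt and Banp were among the 9 called higher on both sides. Whether the naive and conditioned mice also differed in background or cohort was not tested. The genes of this paragraph were chosen after their values were seen.

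Markers of cells outside the Cre line differed in their median ratio change, at 0.33 for vessels, 0.21 for oligodendrocytes, 0.20 for microglia, -0.02 for astrocytes and -0.05 for inhibitory neurons. Of 18 oligodendrocyte markers, 11 fell in the Input, by 0.34 to 0.67, beside 0.493% of all genes, and none was called in the pulldown. The ratio was higher in 3 and lower in 0 at an unadjusted p under 0.05, beside 2.21% and 2.43% of all genes. Mag, a myelin-associated glycoprotein, had Inputs of 180, 185 and 155 CPM against 121, 138 and 116 CPM at pulldown levels of 5.57 to 6.74 and 5.75 to 6.73 CPM. Its ratio change was 0.48 (SE 0.16). Cldn11, the claudin of myelin, gave 0.28 (SE 0.16) and Mbp 0.19 (SE 0.10). The summed level of the 18 markers was 6601 to 7157 CPM in naive and 5014 to 5825 CPM in conditioned Inputs, and 446 to 466 and 333 to 447 CPM in pulldowns. With the Inputs of lane 5 alone, which hold 1 naive mouse, the Input changes of Cldn11, Mag and Mbp were -0.48, -0.31 and -0.26. With all Inputs they were -0.55, -0.45 and -0.34. In bulk tissue fewer cells of a type and less RNA per cell cannot be told apart.

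Of 27 vessel markers, 2 fell in the Input, and the ratio was higher in 8 and lower in 0 at an unadjusted p under 0.05, with none called. Over all genes those shares were 0.493%, 2.21% and 2.43%. The median ratio of the vessel list was -4.0 to -3.3 over the 6 mice, so a fitting comparison is with other depleted genes. Among the 1400 genes most depleted from the pulldown of cKI mice, 133 had an unadjusted p under 0.05 in either direction. Their median change was 0.10, with 62.9% above 0. Cdh5, the cadherin of endothelial junctions, had pulldown levels of 0.22, 0.37 and 0.31 CPM against 0.54, 0.73 and 0.54 CPM, at Inputs of 9.40 to 11.03 CPM in all 6 mice. Its ratio change of 1.09 (SE 0.24) rests on these low pulldown levels. Slco1c1, the thyroid hormone transporter of brain capillaries, gave 0.35 (SE 0.12). The summed level of the list in the pulldowns was 95.1 to 106 CPM in naive and 104 to 112 CPM in conditioned mice, and in the Inputs 604 to 728 and 605 to 659 CPM. Its part in the other ratio changes was not tested. The nuclear noncoding RNAs Malat1 and Neat1 had changes of 0.56 (SE 0.15) and 0.39 (SE 0.11), with Malat1 at 154, 191 and 140 CPM against 183, 205 and 240 CPM in the pulldown.

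**Figure D4:**
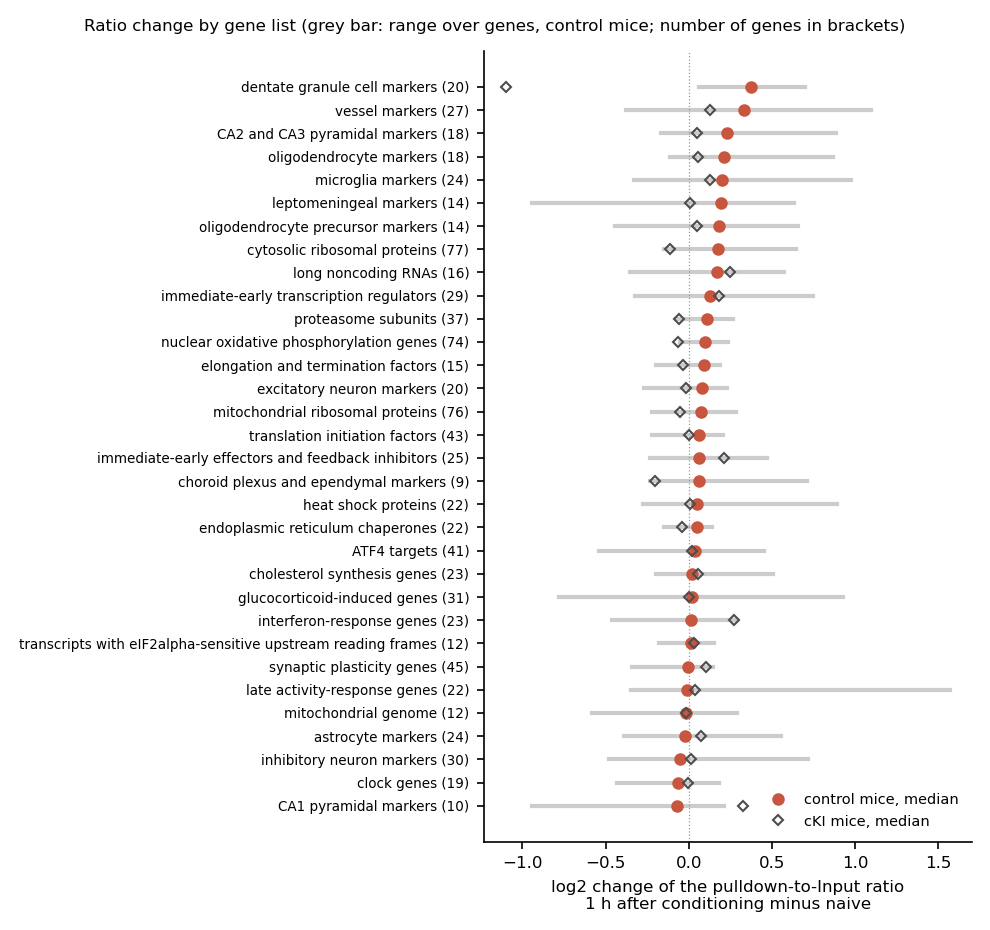
Median change of the pulldown-to-Input ratio 1 h after conditioning for 32 of the 33 gene lists, with control mice as filled circles, cKI mice as open diamonds and the range over genes of the control mice as grey bars. The number of genes follows each name. The control medians run from -0.07 for CA1 pyramidal markers to 0.38 for dentate granule cell markers, and a list of 4 blood cell genes is left out.

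Lists of the translation and energy machinery lay mostly above 0, by small amounts and with no gene called. Cytosolic ribosomal proteins had a median of 0.18, with 68 of 77 above 0, beside 0.02 and 57.3% for all genes. The median was 0.08 for mitochondrial ribosomal proteins (65 of 76 above 0) and 0.10 for nuclear oxidative phosphorylation genes (70 of 74). It was 0.11 for proteasome subunits (35 of 37) and 0.06 for initiation factors (34 of 43). Ribosomal protein genes share reads with many near-identical copies, so their single values are uncertain. One mouse stood apart in these lists. Naive replicate 2 had a ribosomal protein median ratio of -0.56 beside -0.20 to -0.03 in the other 5 mice, and an oxidative phosphorylation median of 0.01 beside 0.29 to 0.39. Without that mouse the share of genes with a change above 0 went from 57.3% to 51.6%, and Sgk1 and Tsc22d3 were called lower. Rpl22, which carries the tag, had ratios of 1.82, 1.94 and 1.87 against 2.17, 2.18 and 2.13 and a change of 0.28 (SE 0.09).

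The mice differed most in dentate granule cell markers, and not by training. The list median of the ratio was 0.50, -1.05 and -1.04 in naive mice and 0.32, 0.25 and -1.17 in conditioned mice. Prox1, the transcription factor that specifies granule cells, had pulldown levels of 165, 35.3 and 39.6 CPM in naive and 156, 128 and 31.1 CPM in conditioned mice. Its Input levels were 140, 111 and 151 CPM against 142, 119 and 134 CPM. So 1 naive and 2 conditioned mice had granule cell transcripts in the pulldown at Input level or above, and the other 3 did not, at like Inputs. C1ql2, a synaptic organiser made by granule cells, split the same mice at 140, 25.9 and 29.5 against 137, 99.2 and 18.01 CPM. The change after conditioning was 0.55 (SE 0.88) for Prox1 and 0.57 (SE 0.93) for C1ql2, and all 20 markers overlapped between the training states. With the Inputs of lane 5 the changes were 1.36 and 1.32, but that setting keeps naive replicate 3 as the only naive mouse. It leaves out naive replicate 1, whose Prox1 ratio was 0.23 beside -1.93 in replicate 3, so these values do not isolate lane. The CA1 pyramidal list ran from 1.22 to 1.51 over the 6 mice and the general excitatory list from 0.76 to 0.84.

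**Figure D5:**
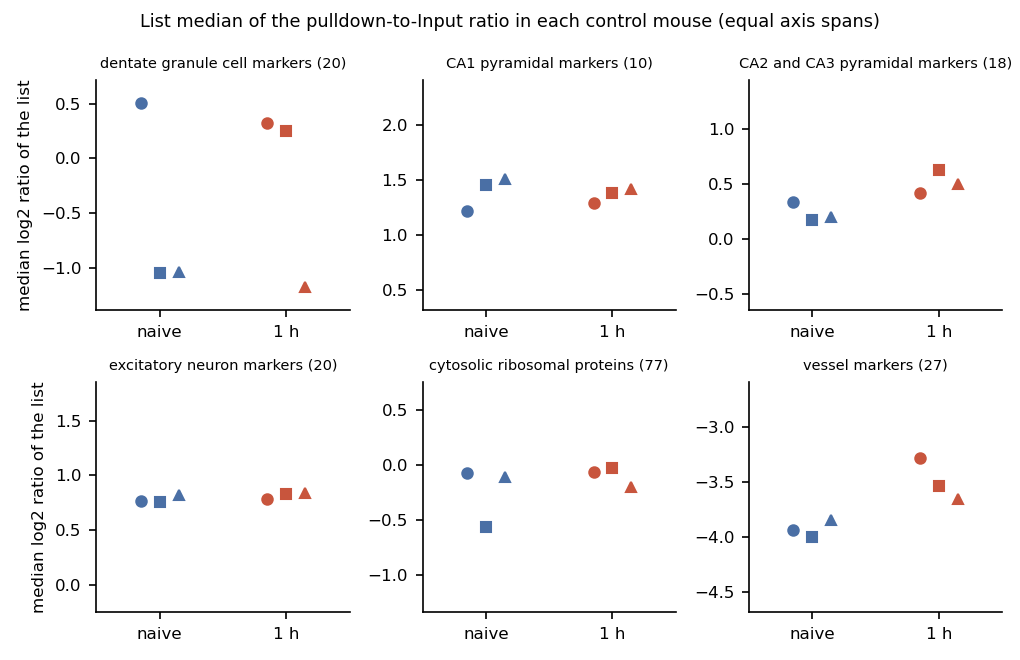
Median log2 pulldown-to-Input ratio of 6 gene lists in each control mouse, with naive mice in blue, conditioned mice in red, a symbol for each replicate and the same span on every vertical axis. Granule cell markers split the mice into values of 0.25 to 0.50 and of -1.17 to -1.04 within both training states, and the other lists vary less.

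CA2 and CA3 pyramidal markers had a median change of 0.23 over 18 genes, with 3 higher and 0 lower at an unadjusted p under 0.05 and 6 higher without overlap, beside 2.21%, 2.43% and 6.09% of all genes. Homer3, described above, and Cacng5, an AMPA receptor auxiliary subunit, were the 2 with the smallest p. Cacng5 had ratios of 0.40, 0.62 and 0.46 against 0.69, 0.97 and 0.71 and a change of 0.29 (SE 0.11). The list medians were 0.33, 0.17 and 0.20 in naive and 0.42, 0.63 and 0.50 in conditioned mice, without overlap.

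Across the range of enrichment the median change was small. When genes were put into 10 classes by their ratio in the cKI mice, which are not part of this contrast, the median change was 0.10 in the class most depleted from the pulldown, -0.02 in the class after it and 0.07 in the most enriched class. The classes between lay from -0.02 to 0.05. In the most enriched class the median ratios by mouse were 0.69, 0.51 and 0.69 in naive mice. In conditioned mice they were 0.69, 0.74 and 0.69. Naive replicate 2, which stood apart in the lists above, was thus the lowest, and the other naive mice lay at the level of conditioned replicates 1 and 3.

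The same contrast in cKI mice also called no gene in edgeR, with 929 genes (6.64%) at an unadjusted p under 0.05. The difference between the genotypes was tested for every gene, and 0 passed in either direction, with 945 (6.75%) at an unadjusted p under 0.05. DESeq2 called 1 gene lower in that test (0.00714%) and 0 higher. It was Sema3a, a repulsive guidance cue (log2 difference -1.71, adjusted p = 0.0219), with a ratio change of -0.76 in control and 0.92 in cKI mice in edgeR. Its control ratios were 0.57, 0.55 and 0.70 against -0.25, -0.34 and 0.16. For the 8 genes lower with the smallest p the cKI changes were -0.43 to 0.28, among them -0.04 for Tsc22d3, -0.43 for Sgk1, 0.10 for Syt2 and 0.28 for Bmper. The differences of -1.16 to -0.35 had adjusted p of 0.697 to 0.763, so a difference between the genotypes was not shown for any of them. Control pulldowns were all on lane 6, cKI pulldowns on lane 5 except for conditioned replicates 2 and 3, and cKI Inputs on lane 4, so lane and genotype cannot be fully told apart in this test. The granule cell list gave a cKI median of -1.10 beside 0.38 in controls, and its per-mouse medians in cKI mice were 0.73, 0.31 and 0.75 in naive and 0.41, -1.20 and -0.53 in conditioned animals.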

How the data were processed

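The authors deposited 1 table of raw counts per gene for the 24 libraries. Per the labels' protocols, RNA of the Input and of the anti-HA immunoprecipitate of each mouse was made into directional poly(A) libraries and sequenced in pairs. Cutadapt, Bowtie and DESeq2 appear without roles in the submitters' processing notes. Which genome build, counter and strand setting were used is not given in the sources used here, so reads of a gene and an antisense partner may not be separated. Of 51733 symbols, 47597 (92%) matched the gene name table, and 24 had become dates. No column was left out.

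Counts were fitted in R 4.3.3 with edgeR 4.0.16 (robust quasi-likelihood, TMM scaling) over all 24 libraries with 1 term per mouse, since Input and pulldown come from the same animal. Their deviations from the group mean correlated at 0.074 to 0.452 in the 6 control mice. P-values were adjusted over the 14000 genes with CPM of at least 1 in at least 6 control libraries (Benjamini-Hochberg, threshold 0.05). Each fraction was also fitted alone. Printed ratios use a prior count of 2. DESeq2 1.42.0 and limma 3.58.1 served as alternatives. The scripts were tested on simulated data. No 2 libraries of a group agreed within counting noise (smallest chi-square per degree of freedom 2.26).

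Genes were named by rule: with fewer than 5 past the threshold, the 8 smallest p in each direction at a mean log2 CPM of at least 2, the 2 smallest p of each of 33 lists (879 genes), and a fixed set. Genes named for a call on one side were chosen after their values were seen. The comparison and the lists were chosen with earlier results of these data known. Promoter sequences are from RefSeq (GRCm38.p6), and 10424 of the 14000 genes matched a window.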

Additional observations from a re-analysis of the deposited data

How the results depend on the processing

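The count of genes with a changed ratio was 0 in each direction under DESeq2 size factors and library totals. Lane as a covariate and the Inputs of lane 5 alone gave the same median change, 0.00287. Both compare the conditioned mice with naive replicate 3 alone, so they are 1 setting in effect and their calls are not counted. Leaving out 1 mouse gave 0 to 2 genes lower, the 2 being Sgk1 and Tsc22d3 without naive replicate 2, and 0 higher. Lower calls numbered 8 with the DESeq2 Wald test, 2 with no CPM filter (Zdhhc22 and Tsc22d3), 1 in the 12 control libraries alone and 1 with limma on the 6 ratios (CTGF both times). With no replicate block, so without the pairing by mouse, 1 was called (Tsc22d3, adjusted p = 0.0214). The difference between genotypes gave 1 lower with DESeq2.

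Input calls were 190 higher and 121 lower with DESeq2, 18 and 10 with 1 lane, and 22 to 74 and 13 to 61 with 1 mouse left out. Pulldown calls were 113 higher and 151 lower with DESeq2, 40 and 55 with no CPM filter, 37 higher with 1 lane, and 4 to 30 and 3 to 13 with 1 mouse left out. The cause was not tested.

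All 16 genes with the smallest p kept their sign in 15 settings, as did 50 of 57 genes named. The 16 were ranked on this same contrast, so their kept sign follows largely from that choice and is no test. The 7 others had changes of -0.18 to 0.12. With lane as a covariate the change was -0.043 for Egr1, -0.105 for Per1 and 0.029 for Hif3a, and with lane 5 Inputs -0.043, -0.105 and 0.030. With 1 mouse left out it ran from -0.039 to 0.198 for Egr1, -0.014 to 0.089 for Eif2s1, -0.35 to 0.015 for Etnppl, -0.177 to 0.020 for Fkbp5, -0.203 to 0.048 for Fos and -0.239 to 0.184 for Hif3a. The share of genes above 0 was 57.3% and between 50.6% and 58.4% elsewhere.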
